A study of Mus musculus with 2 samples.

Results

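miR-103 and miR-107 are closely related microRNAs that lie in introns of genes for pantothenate kinases, the Pank genes. They were taken as every row of both count files whose name starts with mmu-miR-103- or mmu-miR-107-. This gave 3 rows in each library, of 168 named rows in replicate 1 and 187 in replicate 2, and 3 of the 197 miRNA names listed in either library. The rows were mmu-miR-107-3p, mmu-miR-103-3p and mmu-miR-107-5p. No 5p arm of miR-103 was listed in either library. Small RNA of the liver was sequenced in 2 replicate libraries of 1 group. The mice were wild-type C57BL/6, 2 to 3 months of age, and fed without restriction. The labels do not tie the replicates to different animals, and a difference between them may be technical. The p-values between them are set against counting error alone and do not measure a spread between animals.

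Pantothenate kinases carry out the first, rate-limiting step of coenzyme A synthesis, on which fatty acid oxidation and lipid synthesis in liver depend. A miRNA in an intron can be transcribed with its host gene, cut out as a hairpin, and diced into a 5p and a 3p strand, of which usually only one is kept and loaded onto an Argonaute protein. The loaded strand recognises target mRNAs mainly through its seed. In mice, miR-103 and miR-107 are known as regulators of hepatic insulin sensitivity, with the caveolin gene Cav1 as a reported target. Host mRNA and targets were not measured in these libraries.

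The sequences below are the 3p arms as the authors' files list them, with the seed (bases 2 to 8) in capitals. Shown with them are the listed miRNAs whose own seed, AGCAGCA, matches the start of these 3p arms from base 1 on. Each was the same in both libraries where both list it, except that miR-195a-5p was listed with 22 bases in replicate 1, shown here, and 21 in replicate 2.
mmu-miR-107-3p: aGCAGCAUuguacagggcuaucu
mmu-miR-103-3p: aGCAGCAUuguacagggcuaugu
mmu-miR-15b-5p: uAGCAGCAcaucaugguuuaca
mmu-miR-16-5p: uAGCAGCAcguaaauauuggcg
mmu-miR-195a-5p: uAGCAGCAcagaaauauuggca
mmu-miR-322-5p: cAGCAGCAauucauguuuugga
mmu-miR-497a-5p: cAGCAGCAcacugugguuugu

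miR-107-3p and miR-103-3p shared the seed GCAGCAU, and in each library they were the 2 named rows that had it. Counted from the 5′ end, the first 21 bases of the RefSeq mature sequences are the same, and the difference is G22C, with the base of miR-103-3p first. A read that ends before base 22 fits both names, so the division of reads between them rests on the last bases of each read. The miR-15/16 relatives have the seed AGCAGCA, which is bases 1 to 7 of miR-103-3p and miR-107-3p. Their seeds are therefore offset and not the same.

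In the RefSeq annotation of GRCm38.p6 the family has 3 hairpins, shown here with the 3p arm in capitals because 2 of them yield the same mature strand.
Mir107, chr19:34820687-34820773, minus strand: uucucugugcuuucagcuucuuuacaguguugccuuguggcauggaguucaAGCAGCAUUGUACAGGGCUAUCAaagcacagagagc
Mir103-2, chr2:131288052-131288137, plus strand: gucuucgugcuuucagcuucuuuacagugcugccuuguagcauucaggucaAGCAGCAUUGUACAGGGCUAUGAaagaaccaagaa
Mir103-1, chr11:35782396-35782481, plus strand: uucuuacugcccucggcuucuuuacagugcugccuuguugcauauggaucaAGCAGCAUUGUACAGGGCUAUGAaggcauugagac

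Mir103-2 and Mir107 had 83.9% identical positions in a global alignment of 87 positions. Mir103-1 had 80.2% with Mir103-2 and 80.5% with Mir107. The differences lay outside the 3p arm except for the base named above, and the 5p arms differed by C16U between miR-103-2-5p and miR-107-5p and by G1A between miR-103-1-5p and miR-103-2-5p. The 3p arm of Mir103-1 equals that of Mir103-2 over all 23 bases, so a 3p read alone cannot be placed at Pank3 or at Pank2.

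The authors' files placed miR-107-3p in an intron of Pank1 and miR-103-3p in an intron of Pank2. Neither library had a row at the Mir103-1 hairpin in Pank3. The 279 and 430 counts of miR-103-3p in replicate 1 and replicate 2 all stand at chr2:131288103-131288125 on the plus strand of GRCm38. They may include reads from the Pank3 copy. miR-107-3p has 1 locus, at chr19:34820700-34820722 on the minus strand.

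In the GENCODE M21 annotation of GRCm38 the 3 hairpins occupied matching places in their host genes, each on the strand of its host. In the protein-coding transcripts Pank1-201, Pank2-204 and Pank3-201, all of 7 exons, the hairpin lay in intron 5. The exons on either side of it were of the same size in all 3 genes, with 124 bases in exon 5 and 126 bases in exon 6. The introns themselves differed, with 7282 bases in Pank1, 5801 in Pank2 and 1740 in Pank3. The hairpin began near the upstream exon in Pank1, 326 bases from exon 5. The gap was 454 bases in Pank2 and 688 in Pank3. Other annotated transcripts number the intron differently, such as Pank1-204 with intron 4 and Pank2-203 with intron 2, where the intron has 19135 bases.

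**Figure D1:**
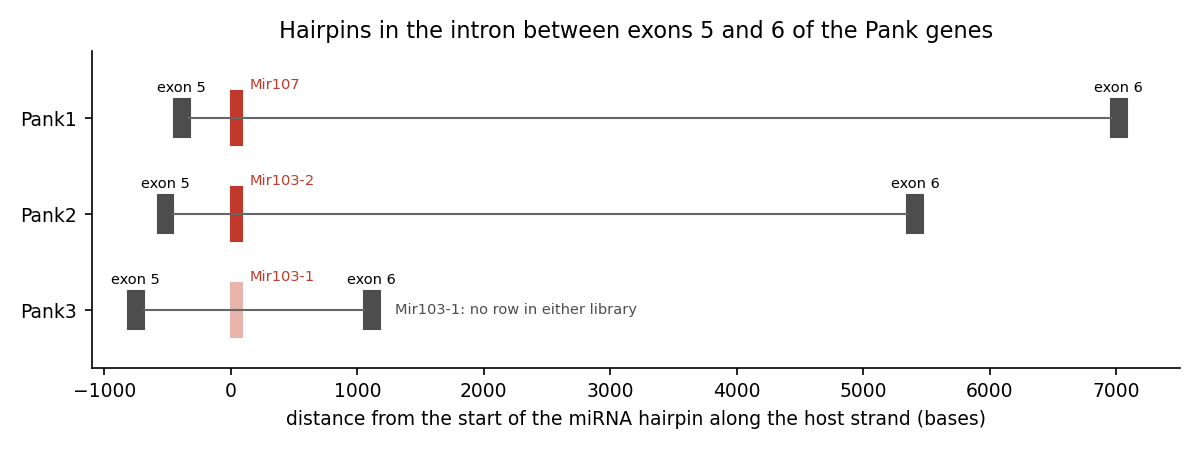
Place of the miRNA hairpins in the Pank genes, with the distance from the hairpin start along the host strand in bases on the x axis and 1 gene per row (dark boxes are exons 5 and 6, red boxes are the hairpins, drawn to scale). The hairpin lies 326 bases downstream of exon 5 in Pank1, 454 in Pank2 and 688 in Pank3, and the Pank3 hairpin, in pale red, has no row in either library.

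The first question was how large a share of the counts each miRNA took in the fed liver. miR-107-3p was counted 563 times in replicate 1 and 898 times in replicate 2. As a share of named miRNA counts this was 0.184% in replicate 1, where the 95% Clopper-Pearson interval ran from 0.169 to 0.200, and 0.167% in replicate 2, where it ran from 0.156 to 0.178. The mean was 0.175% ± 0.0119 (SD, n = 2). The 2 intervals overlap, which by itself does not show that the levels were equal.

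miR-103-3p was counted 279 times in replicate 1 and 430 times in replicate 2. It thus took 0.0911% of replicate 1, with a 95% interval from 0.0807 to 0.102, and 0.0799% of replicate 2, with an interval from 0.0725 to 0.0878. The mean was 0.0855% ± 0.00788 (SD, n = 2), again with overlapping intervals. Both miRNAs were lower in share in replicate 2, by less than the width of their intervals.

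Together the 3p arms held 0.275% of replicate 1, with a 95% interval from 0.257 to 0.294, and 0.247% of replicate 2, with an interval from 0.234 to 0.260, for a mean of 0.261% ± 0.0198 (SD, n = 2). Intervals cover counting error only, and PCR copies are not independent molecules. Shares are of counted reads, and how evenly the library preparation captured different miRNAs was not tested. The library totals behind these shares were 306351 named counts in replicate 1 and 538023 in replicate 2, out of 323447 and 553325 listed. The hepatocyte miRNA miR-122-5p exceeded the combined level of the 3p arms 9.11-fold in replicate 1 and 12.3-fold in replicate 2, and miR-22-3p, the most abundant miRNA, 122.2-fold and 137.5-fold.

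**Figure D2:**
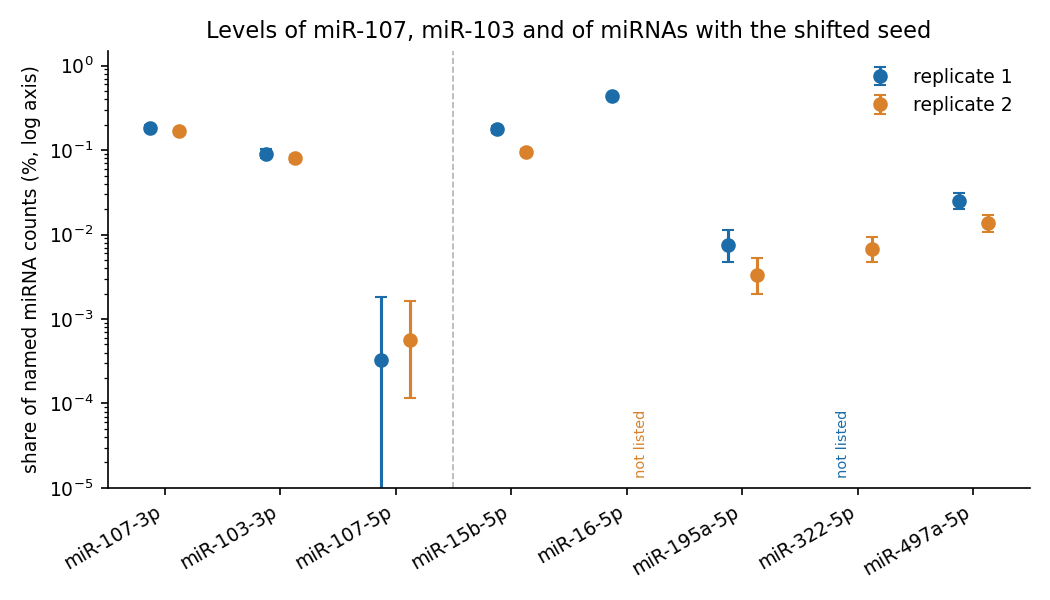
Share of named miRNA counts in percent (log axis) for miR-107-3p, miR-103-3p and miR-107-5p, left of the dashed line, and for the miR-15/16 relatives, right of it; points are single libraries and bars their 95% Clopper-Pearson intervals. miR-107-3p lies above miR-103-3p in both libraries, at 0.184% and 0.167% against 0.0911% and 0.0799%, and miR-16-5p and miR-322-5p are each listed in 1 library.

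By mean level over the 151 miRNAs listed in both libraries, miR-107-3p ranked 39 and miR-103-3p ranked 50. miR-107-3p was the 40th in replicate 1 and the 36th in replicate 2, and miR-103-3p the 52nd and the 49th. The order next to them was not firm. Just above miR-107-3p stood let-7i-5p (0.205% ± 0.0765) and miR-143-3p (0.202% ± 0.00393), and just below it miR-151-5p (0.145% ± 0.00958) and miR-15b-5p (0.136% ± 0.0570), each as mean ± SD of 2 libraries. let-7i-5p lay above miR-107-3p in replicate 1 and below it in replicate 2, with shares of 0.260% and 0.151%.

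Around miR-103-3p the levels were closer still. miR-186-5p (0.0882% ± 0.0225) and miR-31-5p (0.0879% ± 0.0229) stood just above it and miR-501-3p (0.0820% ± 0.0137) and miR-574-3p (0.0772% ± 0.00672) just below. The first 3 of these means differed from that of miR-103-3p by less than 1 SD of either miRNA, and that of miR-574-3p by slightly more than 1 SD of either.

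**Figure D3:**
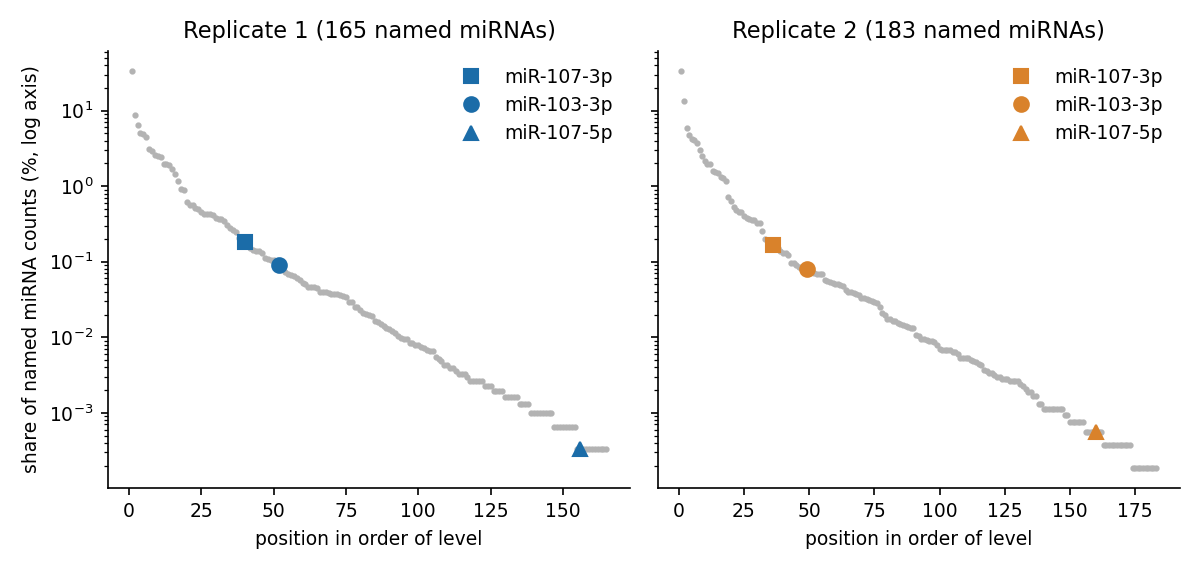
Named miRNAs of each library in order of level, with the share of named counts in percent on a log axis; grey points are all named miRNAs and coloured symbols miR-107-3p, miR-103-3p and miR-107-5p. Both 3p arms lie well above the middle of the order in each library, and miR-107-5p, with 1 and 3 counts, lies near its end.

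The second question was how the 2 miRNAs stood to each other. miR-107-3p exceeded miR-103-3p 2.02-fold in replicate 1 (95% interval from 1.75 to 2.34) and 2.09-fold in replicate 2 (from 1.86 to 2.35). The mean ratio was 2.05 ± 0.0498 (SD, n = 2). Matched without a mismatch, full-length RefSeq 3p arms of miR-103 fit 2 annotated loci and that of miR-107 fits 1. With 1 mismatch allowed, each fits the loci of both, since they differ at 1 base. How reads that fit several loci were placed is not known. A loss of reads that fit both miR-103 loci would lower miR-103-3p. The intervals do not cover this, and its part in the ratio was not tested. How evenly the library preparation captured the 2 sequences was not tested either, and both libraries share that preparation. Put as a share, miR-103-3p made up 33.1% of the counts of both in replicate 1 (29.96 to 36.4) and 32.4% in replicate 2 (29.9 to 34.97).

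The difference in composition between the libraries was within counting error by the 2-sided Fisher's exact test (p = 0.742). The odds ratio of replicate 1 to replicate 2 was 1.03, and its 95% interval ran from 0.857 to 1.25. This comparison needs no scaling of library sizes. It compares these 2 libraries and not conditions. Because miR-103-3p can come from 2 genes and miR-107-3p from 1, the ratio says nothing about output per gene copy.

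The third question was how far the members differed between the replicates, relative to all other miRNAs. The log2 ratio of replicate 1 to replicate 2, at library sizes scaled by TMM, was -0.02 for miR-107-3p (95% interval -0.18 to 0.13) and 0.02 for miR-103-3p (-0.20 to 0.25). In the exact binomial test with Benjamini-Hochberg adjustment over 131 miRNAs, the adjusted p was 0.882 for miR-107-3p and 0.926 for miR-103-3p. Neither passed the threshold of 0.05, while 44.3% of all tested miRNAs did, 30 higher and 28 lower in replicate 1.

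With only 2 members, this count cannot be read against that percentage. The median absolute log2 ratio over all 131 was 0.35, and the coefficient of variation between the libraries beyond counting error, from edgeR's common dispersion, was 0.229. At TMM scaling 4 tested miRNAs had a smaller absolute log2 ratio than miR-107-3p, and 5 a smaller one than miR-103-3p. These places depend on the scaling, and with library totals the numbers were 26 and 35. When unscaled library totals were used, the median of all tested miRNAs was 0.19, against 0.02 with TMM, and 48.9% passed. The members shifted alike, to 0.14 for miR-107-3p and 0.19 for miR-103-3p, and neither passed. Relative to the median of all, miR-107-3p stood at -0.05 and miR-103-3p at 0.00 with TMM and with library totals alike. A change of scaling moves all log2 ratios by nearly the same amount. The like shift of the members and this agreement follow from that and are no test of stability.

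**Figure D4:**
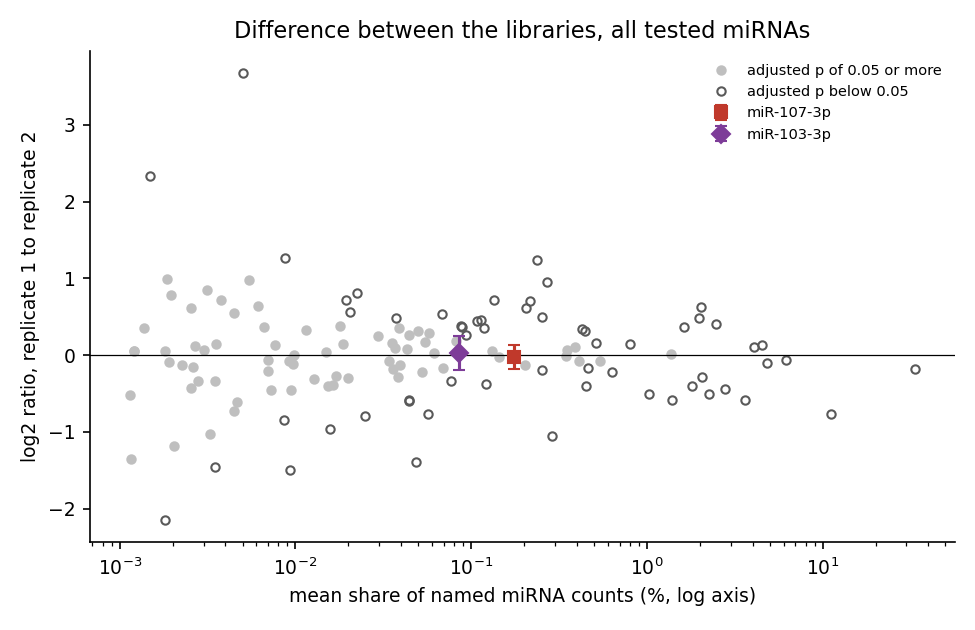
Log2 ratio of replicate 1 to replicate 2 at TMM-scaled library sizes against the mean share of named counts in percent (log axis) for 131 tested miRNAs; open circles passed the exact binomial test at an adjusted p below 0.05, filled grey ones did not, and bars on the 2 members are 95% intervals from counting error. miR-107-3p at -0.02 and miR-103-3p at 0.02 lie on the zero line, and the intervals of both cross it.

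The miR-15/16 relatives with the offset seed, a family known for restraining the cell cycle, were set beside them. Of 6 on the list, 5 were listed in either library. miR-15b-5p was counted 539 times in replicate 1 and 513 times in replicate 2, which is the deeper library, a log2 ratio of 0.72 with an adjusted p of 4.2e-15. miR-497a-5p had 77 and 73, also a log2 ratio of 0.72, with an adjusted p of 0.00658. miR-195a-5p, with 23 and 18, gave 0.98 and did not pass at an adjusted p of 0.0759, all by the exact binomial test.

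Thus 2 of 3 tested relatives were higher in replicate 1, none was lower, and their median log2 ratio was 0.72. Over all 131 tested miRNAs 44.3% passed, 30 of them higher in replicate 1, and the median was 0.02. With 3 tested relatives, the count is not read against that share. Whether the relatives and the members differ in their ratios was not tested. miR-16-5p had a row in replicate 1 alone (1321 counts) and miR-322-5p in replicate 2 alone (36 counts). miR-103-3p and miR-107-3p together had 842 counts in replicate 1 and 1328 in replicate 2. This was 0.430 times the sum of all listed relatives in replicate 1 and 2.08 times in replicate 2. Over the 3 relatives listed in both libraries the ratio was 1.32 in replicate 1 and 2.20 in replicate 2. The second pair of ratios leaves out miR-16-5p and miR-322-5p. An unlisted miRNA gives no upper limit on its level, because the files list called loci only.

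Among miRNAs with reported roles in insulin action and glucose handling, 12 of 15 were listed in either library. Of the 10 that could be tested, 2 were higher and 2 lower in replicate 1, and 6 did not pass, with a median log2 ratio of 0.10. The count of 4 in 10 is close to the 44.3% of all tested miRNAs that passed, so it is no result about this list. The highest levels of the list were those of miR-26a-5p, at 6.19% ± 0.309, miR-27b-3p, at 1.81% ± 0.206, miR-29a-3p, at 0.544% ± 0.0247, and miR-26b-5p, at 0.442% ± 0.104 (SD, n = 2). All 4 stood above miR-107-3p.

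miR-802-5p, another miRNA linked to hepatic insulin sensitivity in mice, had a row in replicate 2 alone, with 5 counts. The other arm of its hairpin, miR-802-3p, was also listed in replicate 2 alone, with 34 counts. miR-33-5p of the Srebf2 gene, a regulator of cholesterol export, was not listed, nor were miR-375-3p and miR-27a-3p. miR-103-3p and miR-107-3p were thus at intermediate levels for this group, below its abundant members and above such scarce ones as miR-34a-5p, a miRNA induced by p53, at 0.0114% ± 0.00276.

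As intronic miRNAs, both members were moderate. Of the miRNAs whose most counted locus the files place in an intron of a protein-coding gene, 59 had a level in both libraries, and miR-107-3p ranked 12 and miR-103-3p ranked 17 among them. The 5 highest were miR-26a-5p in Ctdspl, miR-378a-3p in Ppargc1b (2.25% ± 0.383), miR-423-5p in Nsrp1 (2.05% ± 0.116), miR-27b-3p in 2010111I01Rik and miR-151-3p in Ptk2 (1.38% ± 0.279). Intronic miRNAs held 17.3% of named counts in replicate 1 and 17.9% in replicate 2. miR-103-3p and miR-107-3p took 1.59% and 1.38% of that intronic sum. The median intronic miRNA had 44.5 counts in replicate 1 and 64.5 in replicate 2, below miR-103-3p with 279 and 430.

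The fourth question was which strand of the hairpins was kept. Mir107 was dominated by its 3p arm. miR-107-5p had a single count in replicate 1 and 3 counts in replicate 2, beside 563 and 898 counts of miR-107-3p. It made up 0.177% of the hairpin's counts in replicate 1, with a 95% interval from 0.00449 to 0.984, and 0.333% in replicate 2, with an interval from 0.0687 to 0.970. The shares differed by less than counting error (2-sided Fisher's exact test, p = 1.0), and both counts are no more than the 3 that an observed 0 would leave possible.

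Among hairpins with both arms listed and at least 20 counts, the median share of the minor arm was 0.996% over 55 hairpins in replicate 1 and 0.935% over 63 in replicate 2. They were 55 of the 105 hairpins listed in replicate 1 and 63 of the 118 in replicate 2. The rest lacked a listed arm or had fewer than 20 counts, so the medians do not describe all listed hairpins. The Mir107 share lay below the median in both, with 17 hairpins below it in replicate 1 and 23 in replicate 2. In replicate 1 its interval ended at 0.984, just under the median. In replicate 2 the interval, from 0.0687 to 0.970, includes the median, so a place below it is not shown there. The 3p arm was the larger one in 30 of those 55 hairpins and in 33 of 63. No arm share could be formed for Mir103-2, since its 5p arm was not listed.

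**Figure D5:**
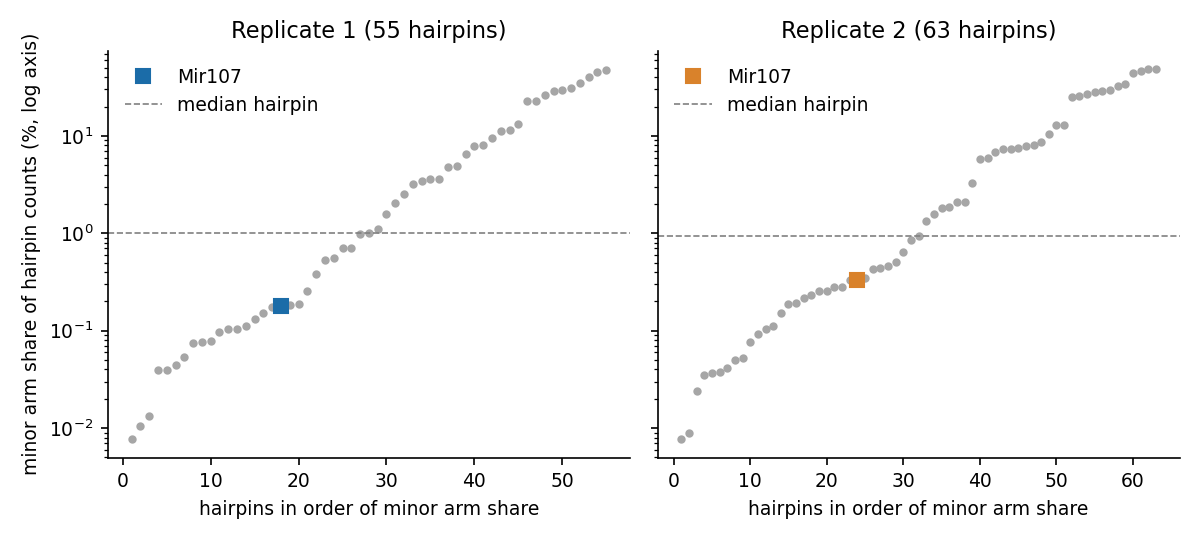
Share of the minor arm in the counts of each hairpin, in percent on a log axis, for hairpins with both arms listed and at least 20 counts, in ascending order; the dashed line is the median hairpin and the square is Mir107. Mir107 stands at 0.177% in replicate 1 and 0.333% in replicate 2, below the median of these hairpins in both libraries. Its interval in replicate 2, from 0.0687 to 0.970, includes that median.

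The listed miR-107-5p differed in its ends between the libraries and from RefSeq, as the sequences show, with bases 2 to 8 in capitals to mark the seed that each start gives.
miR-107-5p, RefSeq: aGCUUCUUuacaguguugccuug
miR-107-5p, replicate 1: cAGCUUCUuuacaguguugcc
miR-107-5p, replicate 2: aGCUUCUUuacaguguugccuugc

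In replicate 1 the listed strand began 1 base upstream of the RefSeq start and so had another seed, AGCUUCU in place of GCUUCUU. In replicate 2 it began at the RefSeq start and was 24 bases long, and its last base differed from the RefSeq hairpin as U24C. These ends rest on 1 count and on 3 counts.

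The 3p arms differed from RefSeq at their last base in both libraries, which the next sequences show with the last 2 bases in capitals. The first of the 2 capitals tells miR-107-3p from miR-103-3p, and the second is where the files depart from RefSeq.
mmu-miR-107-3p, both libraries: agcagcauuguacagggcuauCU
mmu-miR-107-3p, RefSeq: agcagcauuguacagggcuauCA
mmu-miR-103-3p, both libraries: agcagcauuguacagggcuauGU
mmu-miR-103-3p, RefSeq: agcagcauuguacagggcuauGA

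Both were listed at exactly the RefSeq start and end, with the change A23U, the RefSeq base first. All 3 RefSeq hairpins have A at this place, so none of the annotated copies holds the listed U. The sources used here do not say whether the listed sequence is that of the most frequent read, and the counts are not split by end.

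A minority of rows had such ends. Of the named rows that lie within a RefSeq hairpin, 11 of 142 in replicate 1 had a last base other than RefSeq's, or 7.75% (95% interval 3.93 to 13.4). In replicate 2 it was 18 of 154, or 11.7% (7.08 to 17.8). These rows held 11.1% of the counts of all rows so placed in replicate 1 and 16.3% in replicate 2, the bulk of them in miR-92a-3p (27148 and 72200 counts). The last base was the only change in 10 of these 11 rows in replicate 1 and 16 of 18 in replicate 2, and in 8 and 13 of those it was a U. A differing last base was found in both libraries for 6 miRNAs, all with U, among them miR-107-3p and miR-103-3p. The other 4 were miR-92a-3p, miR-23b-3p, miR-331-3p and miR-25-3p, named here after their values were seen.

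The listed hairpins showed the same letters. The hairpin given with each 3p arm had 63 bases and ended in the listed U (A63U against RefSeq in each case). For Mir107 in replicate 2 the hairpin also carried U27C, which is the last base of the miR-107-5p strand listed in that library, while replicate 1 had the RefSeq base. The deposited hairpin letters thus repeat those of the listed arms.

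In the deposited secondary structures the 3p arms were held alike. The miR-107-3p hairpin had 23 base pairs, 5 of them G-U pairs, and the miR-103-3p hairpin had 22, 2 of them G-U pairs. In both, 18 of the 23 bases of the arm were paired, including all 7 seed bases, and none of the last 4 bases was. The deposited hairpins stop at the last base of the 3p arm, where the RefSeq hairpins go on. Pairing of that end within the longer hairpins was not tested. The counts of pairs were the same in replicate 1 and replicate 2.

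Markers of the labelled tissue were present, and so were some of other cell types at levels near those of the members. Of 5 hepatocyte markers 4 were listed in each library, at 4.79% of named counts in replicate 1 and 5.11% in replicate 2. Mesenchymal markers (3 of 4 listed) took 0.554% and 0.333%, immune markers (1 of 4, miR-150-5p) 0.311% and 0.197%, endothelial markers (2 of 2) 0.0444% and 0.0355%, and biliary markers (1 of 5) 0.0196% and 0.0303%. Neural markers (1 of 3) had 3 counts in replicate 1. No member of the erythroid, muscle or pancreatic marker lists had a row. The erythroid list names miR-486a-5p, and miR-486b-5p, which is not on it, had 14 counts in replicate 2 alone. In the exact binomial test the mesenchymal miR-145a-5p (log2 ratio 1.24) and the immune miR-150-5p (0.50) were higher in replicate 1. The hepatocyte markers miR-122-5p (-0.44) and miR-148a-3p (-0.16) and the biliary miR-200b-3p (-0.79) were lower. The mesenchymal miR-143-3p (-0.12) and miR-214-3p (-0.34) did not pass, nor did the hepatocyte miR-192-5p (0.02) and miR-194-5p (-0.01). The endothelial miR-126a-5p (0.10) and miR-126a-3p (0.85) did not pass either. Over all tested miRNAs 44.3% passed, and a difference in cell content between the libraries was not tested. miR-107-3p and miR-103-3p stood at -0.02 and 0.02. miR-103 and miR-107 are broadly expressed, and the part of other cells in their counts was not tested.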

How the data were processed

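Per the labels' protocols, 1 µg of total RNA went into each library (Illumina TruSeq small RNA). Tools named in the submitters' processing notes are Bowtie 1.0.1, cutadapt 1.5 and FastQC 0.11.2, with the build GRCm38 (mm10). The sources used here do not say which program called loci or how reads that fit several loci were placed. The deposited files give raw read counts per called locus, not normalised. Loci without a miRNA name (5.02% of listed counts in replicate 1, 2.46% in replicate 2) were kept out of totals. Where a name had several loci, the highest was used. File positions count from 0 and were raised by 1. They were then compared with RefSeq GRCm38.p6 hairpins and GENCODE M21.

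With 1 group, levels were described as shares with exact Clopper-Pearson intervals (scipy 1.17.1). Every miRNA with a row in each library and a summed count of 10 or more entered a 2-sided exact binomial test at TMM effective library sizes (edgeR 4.0.16), with Benjamini-Hochberg adjustment and a prior count of 0.5 for log2 ratios. The test was tested on simulated data that held counting error alone, without the further variation between these libraries. Alternatives were DESeq2 1.42.0 size factors, library totals, other count minimums, unlisted miRNAs as 0, summed loci, all listed counts as the denominator, and each replicate left out.

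The members, lists, tests and the naming rule were chosen with earlier results of these data known. Named are all rows of the members, the 2 miRNAs next above and below each in mean level, up to 4 listed members of each list by level, and the 5 highest miRNAs of other protein-coding introns. Those named beyond this rule (miR-22-3p, miR-122-5p, miR-486b-5p, miR-802-3p, the unlisted or scarce members of the lists, and those sharing the 3′ end) were chosen after their values were seen.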

Additional observations from a re-analysis of the deposited data

How the results depend on the processing

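The levels of both 3p arms and their sum moved by less than 1 SD of the 2 libraries with all listed counts as the denominator and with loci summed. With 2 libraries, leaving either out gives the value of the other and is no test of stability: the share of miR-107-3p ran from 0.167% to 0.184%, that of miR-103-3p from 0.0799% to 0.0911%, their sum from 0.247% to 0.275%, and the miR-103-3p part of both from 32.4% to 33.1%. The log2 ratio of miR-107-3p between the libraries changed sign with library totals (0.14), and that of miR-103-3p with no filter on counts (-0.0086) and with at least 50 counts summed (-0.025). These values are close to 0 and none passed the test: adjusted p ran from 0.14 to 0.882 for miR-107-3p and from 0.163 to 1 for miR-103-3p. The cause was not tested beyond the median shift of library totals given above. The miRNAs past the test were 55 of 100 with at least 50 counts summed, 57 of 151 with no filter and 76 of 149 with unlisted miRNAs as 0, beside 58 of 131, so the share ran from 37.7% to 55.0%. Depth limits the 5p arm most, with 1 and 3 counts. No paired analysis was possible because there is 1 group.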
